A study of Mus musculus with 36 samples.

Results

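The striatum of control mice fed PLX5622 was compared with the striatum of control mice on placebo chow, in 4 of the 36 RNA-seq libraries of the series. Libraries were taken by title, 2 from the PLX5622 control striatum group and 2 from the untreated control striatum group, which is called placebo here because the series' design text speaks of placebo. All 4 hold poly(A) RNA of bulk striatum from male mice. These animals are labelled only as controls, and the protocol speaks of wild-type mice. PLX5622 was given in AIN-76A chow at 1200 mg/kg from 4 weeks of age for 12 weeks, and the placebo mice ate AIN-76A chow without it. The labels name no strain, allele or transgene for either group. The labels do not say which libraries came from the same animal or whether animals were pooled. The p-values of this comparison therefore measure the spread between libraries, which was estimated over all 9 striatum libraries of the series.

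Other libraries of the series were used to show where the control striatum differed. The striatum libraries among them were also fitted together with the control striatum libraries, so the calls in control striatum rest partly on them. These were striatum of MBP29-hα-syn mice, which carry human α-synuclein under a myelin basic protein promoter that is active in oligodendrocytes and are used to model the disease multiple system atrophy (MSA), with 2 PLX5622 and 3 placebo libraries. Control cortex had 3 PLX5622 and 3 placebo libraries, and control corpus callosum had 2 PLX5622 and 3 placebo libraries. Microglia sorted from the forebrain of 16-week-old mice on no diet gave 3 further libraries. Their labels tag these mice as MBP29 heterozygous controls, whereas wild-type mice are named in the protocol.

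CSF1R is a receptor tyrosine kinase that microglia and other tissue macrophages need for survival, and its ligands are CSF1 and IL-34. PLX5622 enters the brain and blocks the kinase, and microglia die when the signal is lost. The striatum is built mainly of inhibitory spiny projection neurons that carry either the D1 or the D2 dopamine receptor, among which microglia are a small minority of cells. In bulk tissue, fewer cells of a type and less RNA per cell cannot be told apart.

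One label went against the grouping. The titles and group tags of both PLX5622 libraries name PLX, whereas their treatment tag says no treatment, and they were grouped by title. The microglial markers Csf1r, Cx3cr1, P2ry12, Tmem119 and C1qa summed to 2.09 and 0.425 counts per 1000000 assigned counts (CPM) in the PLX5622 libraries, against 274 and 270 CPM in the placebo libraries. The sums of both PLX5622 libraries lie far below those of both placebo libraries. Counts assigned to genes came to 9.58 and 9.40 M in the PLX5622 libraries and to 7.59 and 11.3 M in the placebo libraries. The tissue label was met by 8 markers of striatal projection neurons, among them Ppp1r1b, Drd1 and Adora2a, which summed to 12189 and 12036 CPM with PLX5622 and to 10145 and 12051 CPM with placebo. Of 14872 genes with enough counts to be tested among 24940 in the table, the median log2 difference was 0.0042.

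The genes that fell with PLX5622 were genes of microglia. Of the 14872 genes tested, 49 fell (0.329%) and 1 rose (0.00672%), where a call means a Benjamini-Hochberg adjusted p under 0.05 in edgeR's quasi-likelihood test. All 49 that fell were enriched in sorted microglia, by a definition made on libraries outside this comparison. The 1 that rose was C4b, a complement component. Before adjustment, 284 genes were lower (1.91%) and 50 were higher (0.336%) at p under 0.05.

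**Figure D1:**
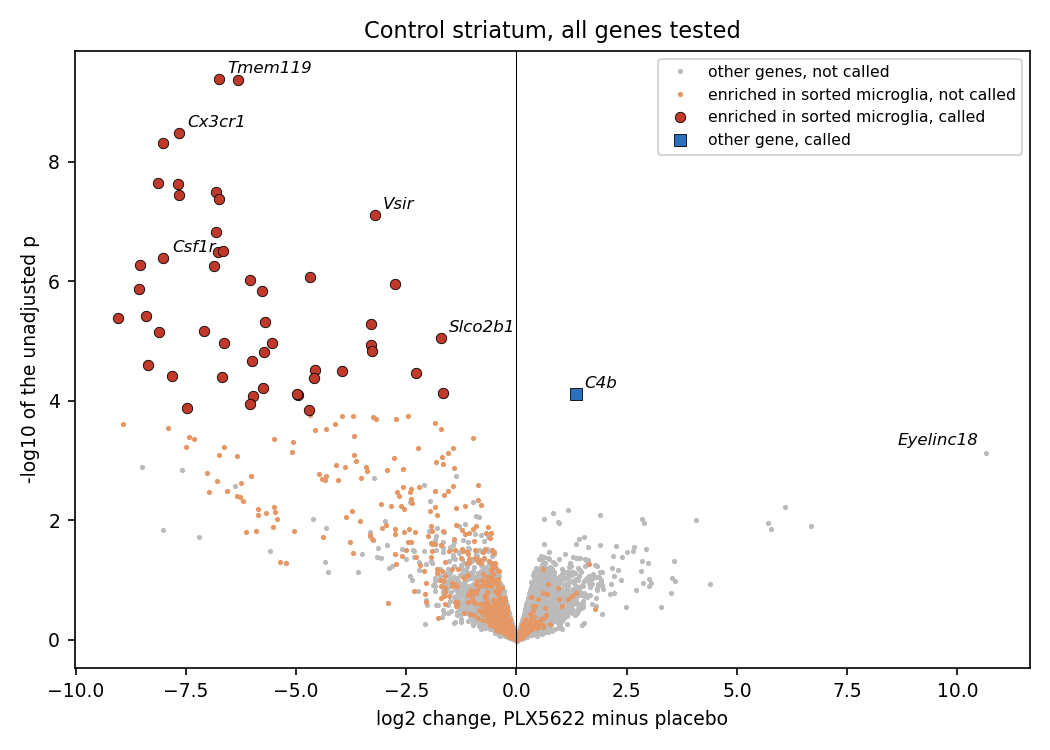
Each point is one of the 14872 genes tested in control striatum, with the log2 difference of PLX5622 minus placebo on the x axis and -log10 of the unadjusted p on the y axis. The 49 called genes on the left are all enriched in sorted microglia, and C4b is the only called gene on the right; Eyelinc18, which has no counts with placebo, lies farthest right and was not called.

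Csf1r, the gene for the drug's target, fell. Csf1r (chromosome 18, 61105572 to 61131139, mm10, NM_001037859) had 7 and 0 counts in the PLX5622 libraries, against 716 and 1207 counts in the placebo libraries. As levels these were 0.730 and 0 CPM with PLX5622, against 94.3 and 107 CPM with placebo, so the groups were far apart. Its log2 difference was -8.01 ± 0.72 (SE, edgeR adjusted p = 0.000429). Since PLX5622 acts on the protein, this measures the loss of transcript-bearing cells or of their transcript and not the inhibition itself. Neither ligand passed the test. Il34, which striatal neurons make, had 61.4 and 55.3 CPM with PLX5622 and 51.1 and 58.1 CPM with placebo, a log2 difference of 0.12 ± 0.21. Csf1 had 27.8 and 26.4 CPM with PLX5622, between the 22.9 and 32.8 CPM of the placebo libraries. Both ligands were named after their values were seen.

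The list of microglial surface receptors held the most calls. Of 33 tested genes of this list 19 fell and none rose, with a median log2 difference of -6.05, or -5.27 when genes without a count are set to a floor of 3 counts over the group. Over all genes tested the median was 0.0042. Tmem119, a membrane protein that marks microglia as opposed to infiltrating macrophages (chromosome 5, 113793729 to 113800352), had 3 and 2 counts with PLX5622, against 247 and 321 counts with placebo. The log2 difference of Tmem119 was -6.74 ± 0.36 (edgeR adjusted p = 3.14e-06). P2ry12, the ADP receptor that steers microglial processes, had 1 and 2 counts with PLX5622, against 324 and 343 with placebo. That is a ratio of 224 (95% counting interval 76.3 to 1088). Cx3cr1, the receptor for the neuronal chemokine fractalkine, had 5 and 0 counts with PLX5622 and 450 and 623 with placebo, a log2 difference of -7.65 ± 0.50. In each of these 3 genes the PLX5622 libraries stood at or near 0 and the placebo libraries did not overlap with them.

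The other called receptors were also at or near 0 with PLX5622. Selplg, a selectin ligand, had 2 and 6 counts with PLX5622 against 387 and 507 with placebo. Among the immune receptors and their adaptors, Trem2, a lipid sensor, had 2 and 0 counts with PLX5622 against 117 and 142 with placebo. Tyrobp, the adaptor through which TREM2 signals, had 1 and 0 counts with PLX5622 against 89 and 82 with placebo. Fcer1g, the common chain of Fc receptors, had none with PLX5622 against 45 and 57 with placebo, at least 34.2-fold lower. P2ry13 (at least 50.3-fold lower) and Cd33 (at least 38.6-fold lower) also had no count in either PLX5622 library. Siglech, Itgam, Itgb2, Gpr34, Cd53, Fcgr3, Ptprc, Cd37, Havcr2 and Ly86 fell as well, each with at most 6 counts in a PLX5622 library. The calls of Tyrobp, Itgb2, Gpr34, Cd53, Fcgr3, Ptprc, Cd37, Havcr2 and Ly86 were lost without the first or the second PLX5622 library, with edgeR adjusted p there of up to 0.403 (Havcr2 without the first).

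**Figure D2:**
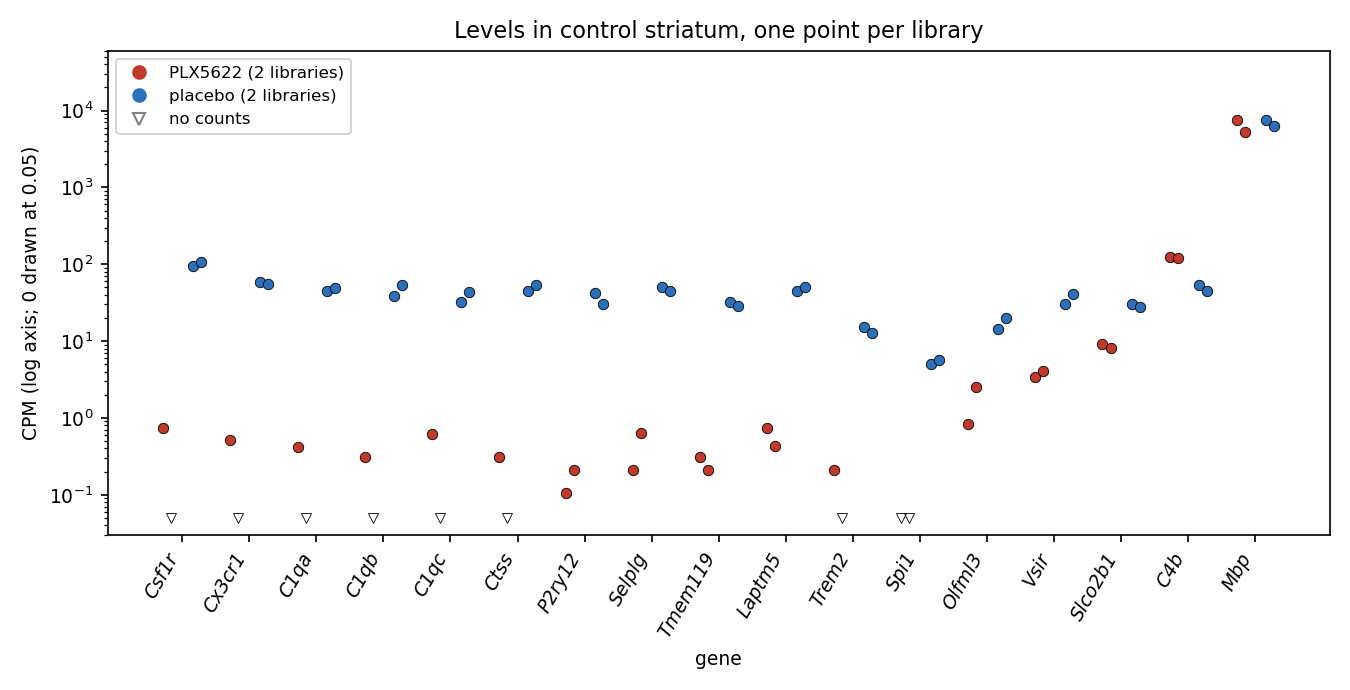
Levels of 17 genes in control striatum in CPM on a log axis, with PLX5622 libraries left of placebo libraries for each gene and libraries without a count drawn as open triangles at 0.05. From Csf1r to Spi1 the PLX5622 points lie below 1 CPM, Olfml3, Vsir and Slco2b1 keep intermediate levels, C4b is higher with PLX5622, and the Mbp points of both groups overlap.

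Complement C1q, the recognition molecule of the classical pathway, is made in the brain mainly by microglia, and its 3 chains were nearly gone. C1qa had 4 and 0 counts with PLX5622, against 342 and 549 with placebo. C1qb had 3 and 0 counts with PLX5622, against 289 and 610 with placebo. C1qc had 6 and 0 counts with PLX5622, against 244 and 495 with placebo. The chains therefore kept 13 counts in the first PLX5622 library and none in the second. The 3 genes lie side by side on chromosome 4, from 136880145 to 136898844, and their log2 differences were -7.67 ± 0.62, -8.03 ± 0.54 and -6.82 ± 0.54 (C1qa, C1qb and C1qc).

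Lysosomal and secreted microglial genes fell to different depths. Of 21 tested members of that list 8 fell and none rose, and the median was -1.70. Ctss, the lysosomal protease cathepsin S, had 3 and 0 counts with PLX5622 against 341 and 609 with placebo, a ratio of 319 (95% counting interval 109 to 1549). Laptm5, a lysosomal membrane protein of blood-derived cells, had 7 and 4 counts with PLX5622 against 341 and 578 with placebo. Olfml3, a secreted matrix protein, kept more, with 0.835 and 2.55 CPM in the PLX5622 libraries and 14.2 and 20.1 CPM in the placebo libraries. Cst3, the secreted protease inhibitor cystatin C, had 1144 and 613 CPM with PLX5622 and 1333 and 995 CPM with placebo. For Cst3 the groups overlapped, and it was named after its values were seen.

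Of the transcription factors that build the myeloid lineage, 17 were tested and 1 passed, Spi1, the gene for PU.1. Spi1 had no count in either PLX5622 library, against 38 and 63 counts with placebo, at least 33.9-fold lower (edgeR adjusted p = 0.0107, 0.109 without the first PLX5622 library and 0.0997 without the second). Others had lower values without passing. Irf8, a partner of PU.1, had 4.38 and 2.66 CPM with PLX5622 against 12.6 and 8.52 CPM with placebo, a log2 difference of -1.55 ± 0.42 (edgeR adjusted p = 0.418). Irf5 had 3 and 7 counts with PLX5622 against 42 and 58 with placebo, and Runx1 had 1 and 3 counts against 16 and 31. Irf5 missed the threshold narrowly (edgeR adjusted p = 0.0508). Irf8 was named after its values were seen.

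Signalling and cytoskeletal genes of myeloid cells gave 8 calls among 38 tested, all lower, with a median of -3.24, or -2.67 with genes at 0 set to the floor. Ncf1, a subunit of the phagocyte NADPH oxidase, had 1 and 1 counts with PLX5622 against 89 and 171 with placebo. Bin2, a membrane-bending protein, and Vav1, a signalling protein of blood cells, had no count with PLX5622, which puts Bin2 at least 37.6-fold and Vav1 at least 22.1-fold below placebo. Cyth4, Hcls1, Fyb, Fermt3 and Dock2 completed this set. The calls of Vav1, Hcls1, Fyb, Fermt3 and Dock2 were lost without the first or without the second PLX5622 library, with edgeR adjusted p of up to 0.252 (Dock2 without the first). Among innate sensors and cytokine genes 1 of 15 tested fell, Cd14, a co-receptor for bacterial lipopolysaccharide. Its call was lost without any 1 of the control striatum libraries, with those libraries alone, with the replicate block and in the fit of all 30 bulk libraries. It was also lost without each MSA striatum library but the first placebo one. Cd14 had 0 and 2 counts with PLX5622 against 27 and 33 with placebo. Tlr7 had 0 and 2 counts with PLX5622 against 49 and 54 with placebo, and Tlr13 had none against 13 and 45, and neither passed (edgeR adjusted p = 0.0933 and 0.123).

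Other called genes stood on no list. Mpeg1, a pore-forming protein of macrophages, had 1 and 3 counts with PLX5622 against 190 and 242 with placebo. Arhgap45 had 0 and 3 counts with PLX5622 against 72 and 113 with placebo, Pld4 had 9 and 0 against 103 and 117, and Rasal3 had 4 and 2 against 46 and 50. Tmem173, which encodes the DNA-sensing adaptor STING, had 1 and 0 counts with PLX5622 against 48 and 29 with placebo. Tifab and Slfn8 had none with PLX5622 and stood at least 28.2-fold (Tifab) and 18.5-fold (Slfn8) below placebo. Of these, Tmem173, Slfn8 and Rasal3 lost their call without either PLX5622 library, without the first placebo library and with the control libraries alone. Slfn8 also lost its call with the replicate block and in the fit of all 30 bulk libraries. Pld4 lost its call without the first placebo library and with the control libraries alone.

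The calls differed in how far they held in other settings. Of the 50 called genes 24 stayed called in every alternative that was run, among them Tmem119, Laptm5, Cx3cr1, the 3 C1q chains, Ctss, P2ry12, Selplg, Vsir, Trem2, Csf1r and Itgam. Leaving out 1 library ended 22 calls for each PLX5622 library, 15 for the first and 8 for the second placebo library, and up to 7 for an MSA striatum library, and a fit of the 4 control libraries alone ended 16. The number called was 33 without the first and 29 without the second PLX5622 library. It was 84 without a filter on low counts and 99 with DESeq2, and all 50 were among the calls in both. No called gene changed direction in these settings.

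The regions upstream of the lowered genes were read because PU.1, the product of the lowered gene Spi1, is known to bind purine-rich ETS motifs. Of the 49 genes, 36 had a promoter in the RefSeq table on GRCm38.p6. The letters GAGGAAG, on either strand, occurred in the 250 bases before the start of 11 of these 36 (30.6%) and of 1218 among 11485 tested genes with a promoter (10.6%). A longer ETS-IRF composite, GGAA and GAAA with 2 bases between them on either strand, which does not contain the first motif, occurred in 0 of the 36 and in 215 of the 11485 (1.87%). All 36 are enriched in sorted microglia, and the share among enriched genes that did not fall was not counted. Whether the motif goes with the fall or with microglial genes at large was therefore not tested. The match is a description of letters and not of binding. Lowered genes with the motif (3) and without it (1) are shown 5′ to 3′ on the strand of the gene, with the motif or its reverse complement in capitals. They are C1qc (chr4:136892915-136893164, minus strand), Trem2 (chr17:48346151-48346400, plus strand), Laptm5 (chr4:130913066-130913315, plus strand) and Cx3cr1 (chr9:120068297-120068546, minus strand).
C1qc: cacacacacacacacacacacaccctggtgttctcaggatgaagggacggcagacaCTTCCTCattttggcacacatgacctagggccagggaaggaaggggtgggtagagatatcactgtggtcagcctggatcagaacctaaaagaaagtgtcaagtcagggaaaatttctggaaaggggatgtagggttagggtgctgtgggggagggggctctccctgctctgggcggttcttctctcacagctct
Trem2: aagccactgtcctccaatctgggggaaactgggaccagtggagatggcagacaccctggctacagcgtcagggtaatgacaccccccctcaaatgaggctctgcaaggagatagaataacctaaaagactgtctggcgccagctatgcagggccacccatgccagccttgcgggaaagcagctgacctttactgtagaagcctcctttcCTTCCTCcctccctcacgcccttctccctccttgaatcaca
Laptm5: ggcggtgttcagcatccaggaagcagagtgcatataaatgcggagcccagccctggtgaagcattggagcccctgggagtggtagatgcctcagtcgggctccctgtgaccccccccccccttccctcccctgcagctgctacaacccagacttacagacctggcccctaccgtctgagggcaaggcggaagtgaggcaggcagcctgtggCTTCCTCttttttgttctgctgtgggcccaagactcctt
Cx3cr1: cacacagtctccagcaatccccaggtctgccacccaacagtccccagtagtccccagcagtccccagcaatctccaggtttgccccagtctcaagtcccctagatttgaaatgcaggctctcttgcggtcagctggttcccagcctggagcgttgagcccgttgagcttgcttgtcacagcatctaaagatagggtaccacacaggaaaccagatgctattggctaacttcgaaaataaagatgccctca
In C1qc, Trem2 and Laptm5 the match was a single one and lay on the strand opposite to the gene. Cx3cr1, which fell as far as these, holds neither motif in this window. C1qb, whose sequence is not shown, holds neither motif as well. The sequences shown do not reflect the share among the 36 genes, of which 11 held the first motif.

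How much of each transcript was left varied among the 49. Without any count in the PLX5622 libraries were 8 genes, and 19 had 1 to 3 counts over both libraries. A further 13 kept under 5% of the placebo level, 7 kept 5 to 25%, and 2 kept 25% or more. The median share left was 1.15%. The 2 with the most left were Golm1, a Golgi membrane protein, at 30.9%, and Slco2b1, an organic anion transporter, at 29.7%. Slco2b1 had 9.18 and 8.08 CPM with PLX5622 against 30.4 and 27.8 CPM with placebo (log2 difference -1.72 ± 0.23, edgeR adjusted p = 0.0048). Its call was lost without the first or second PLX5622 library or without the first placebo library (edgeR adjusted p = 0.0603, 0.0958 and 0.0546). The calls of Golm1, Unc93b1 and Abca9 were lost without the first PLX5622 library (edgeR adjusted p = 0.361, 0.134 and 0.0699). Unc93b1, which delivers Toll-like receptors to endosomes, kept 19.98%, Vsir, an inhibitory checkpoint receptor, 10.5%, Olfml3 9.85%, and Abca9, a lipid transporter, 9.77%. Vsir had 3.44 and 4.04 CPM with PLX5622 against 30.3 and 40.7 CPM with placebo, a log2 difference of -3.21 ± 0.28 (edgeR adjusted p = 0.000116).

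Levels between genes can be set side by side only per transcript length, in the authors' TPM values, which are scaled by that length. In the placebo libraries C1qb had 51.3 and 75.5 TPM, C1qa had 59.6 and 66.7 TPM and Ctss had 47.4 and 59.0 TPM. In the PLX5622 libraries none of these 3 exceeded 0.560 TPM, which C1qa had in the first library. Unc93b1 had 1.87 and 4.05 TPM with PLX5622 against 14.2 and 14.7 TPM with placebo, so it lay below the others with placebo and above them with PLX5622.

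The 2 PLX5622 libraries held almost the same number of counts over the 49 genes, 457 and 441, against 7568 and 11271 in the placebo libraries. They differed in which genes kept a count. Of the 49 genes 14 had none in the first PLX5622 library and 23 had none in the second. Csf1r, Cx3cr1, Ctss, Itgam, Pld4 and the C1q chains were among those with counts in the first library only, whereas Arhgap45, Hcls1, Ptprc, Dock2, Havcr2 and Cd14 had theirs in the second only. Counts this low have wide counting error, and these genes were picked for being at 0 in one library.

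Microglial transcripts were also followed as a class chosen on other libraries. It holds 785 genes with at least 20 CPM in the sorted control microglia and at least 10 times the level of placebo control cortex, and 696 of them were tested. In this class 49 genes fell (7.04%) and none rose, against 0 that fell and 1 that rose among the other 14176 genes tested. The median log2 difference of the class was -0.45. Of the 696 genes 81 kept under 5% of the placebo level, 73 kept 5 to 25%, 228 kept 25 to 75%, and 314 kept 75% or more. Enrichment over whole cortex does not make a gene specific to microglia. At a ratio of at least 20 the class held 515 genes, of which 434 were tested and 49 fell, with a median of -0.96.

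Most of the 10 members of the class with the largest share left had few counts. H2-Aa, a class II histocompatibility chain, had 0 and 4 counts with PLX5622 and 0 and 1 with placebo. Socs3, an inhibitor of cytokine signalling, had 33 and 16 counts with PLX5622 against 4 and 12 with placebo. Atf3, Lst1, Ncaph, Prdm1, Col6a3, Gbp9 and Stat5a had 2 to 56 counts with PLX5622 and 0 to 29 with placebo. Spint1 was the best measured of them, with 17.2 and 27.3 CPM with PLX5622 and 8.03 and 19.3 CPM with placebo, overlapping between groups. None of these passed the test. At the other end Adgre1, which encodes the macrophage antigen F4/80, had no count with PLX5622 against 32 and 40 with placebo, and it was not called (edgeR adjusted p = 0.0683).

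Aif1, which encodes the microglial stain IBA1, was not called. It had 2.40 and 1.38 CPM with PLX5622 and 3.42 and 1.95 CPM with placebo, so the groups overlapped, and the log2 difference was -0.46 ± 0.81. Per transcript length its level in the placebo libraries was low, at 5.28 and 3.11 TPM, where Csf1r had 34.9 and 41.0 TPM.

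**Figure D3:**
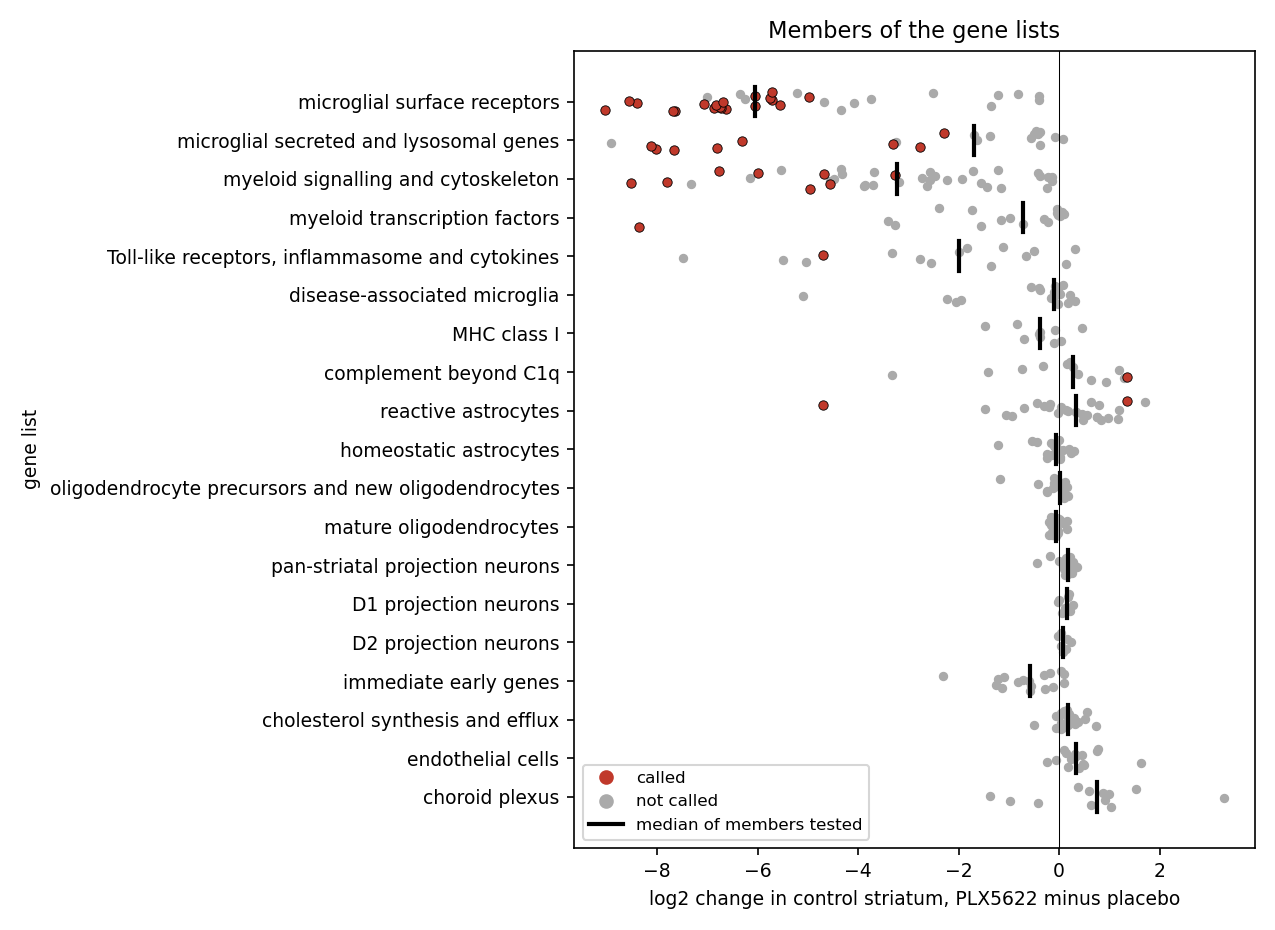
Log2 differences (PLX5622 minus placebo) of the tested members of 19 gene lists in control striatum, one point per gene, with called genes in red and the median as a black bar. The calls sit in the microglial and myeloid lists, apart from C4b, which stands in the complement and reactive astrocyte lists, and Cd14, which the reactive astrocyte list also holds.

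Lists of other immune states and cells gave no call in either direction. Genes that microglia induce in disease had a median of -0.11 over 19 tested, and within them Ccl6, a chemokine, had 0 and 2 counts with PLX5622 against 39 and 38 with placebo, and Spp1, osteopontin, had 2.30 and 0.957 CPM against 9.09 and 3.99 CPM. Ctsd, the lysosomal protease cathepsin D, which many brain cells make, had 164 and 196 CPM with PLX5622 against 259 and 284 CPM with placebo, without overlap and without passing (edgeR adjusted p = 1.0). Markers of macrophages at the brain's borders were scarce, and 4 of 10 could be tested, with a median of -4.12, or -2.54 with genes at 0 set to the floor. Of these 4, 3 were lower at an unadjusted p under 0.05 by edgeR and none was called, where 1.91% of all genes tested were lower at that p. Among the 3, F13a1 had a log2 difference of 0 without the second placebo library, so its fall rests on that library. The summed CPM of the 10 genes kept 56.9% of the placebo level, and that of an overlapping list of 5 such markers kept 96.7%. Of the 10 genes 6, and of the 5 markers 3, had no count in either PLX5622 library. In each list 1 of these had no count with placebo either. With PLX5622 most of both sums came from Cd163, which had 20.7 and 8.40 CPM of the 20.87 and 8.61 CPM of the 5 markers. The 96.7% therefore mainly describes Cd163 and does not show that the markers as a set were kept. Mrc1 had no count with PLX5622 against 11 and 14 with placebo, and Stab1 had 2.09 and 2.23 CPM with PLX5622 against 7.37 and 20.3 CPM with placebo. Cd163 had 20.7 and 8.40 CPM with PLX5622 and 14.5 and 11.3 CPM with placebo, with overlapping groups.

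Antigen presentation and interferon genes gave no call. The 10 class I genes had a median of -0.38, and B2m, the light chain of class I molecules, had 21.9 and 24.1 CPM with PLX5622 against 26.2 and 35.1 CPM with placebo. Of 8 tested class II genes none passed, and Cd74, the invariant chain, had 4 and 4 counts with PLX5622 against 8 and 42 with placebo. The 19 tested interferon-stimulated genes had a median of 0.26. Markers of monocytes and neutrophils summed to 0.835 and 0.744 CPM with PLX5622 and to 0.132 and 0.799 CPM with placebo, and none of the 11 had enough counts to be tested.

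A list of TAM receptors and of the TGF-β pathway, on which microglial identity depends, held 17 tested genes, and none passed. Its median was -0.05, with 9 negative and 8 positive differences. Tgfbr1, a receptor subunit, had 14.0 and 8.19 CPM with PLX5622 against 44.6 and 30.3 CPM with placebo (log2 difference -1.72 ± 0.34, edgeR adjusted p = 0.0711). Tgfb1, the ligand, had 1.15 and 2.45 CPM with PLX5622 against 10.8 and 6.48 CPM with placebo (log2 difference -2.21 ± 0.59, edgeR adjusted p = 0.374).

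The 1 gene that rose was C4b, a complement protein of the classical pathway that astrocytes also make. C4b (chromosome 17, 34728381 to 34743897, NM_009780) had 1197 and 1138 counts with PLX5622, against 410 and 507 with placebo. As levels these were 125 and 121 CPM with PLX5622 and 54.0 and 44.998 CPM with placebo, so the groups were well apart. The log2 difference was 1.35 ± 0.23 (edgeR adjusted p = 0.0256). Its size was stable, between 1.23 and 1.47 in every alternative, but its call was not. It was lost without the first or second PLX5622 library (edgeR adjusted p = 0.149 and 0.178), without the first or second placebo library (0.175 and 0.375), without the second placebo MSA library (0.0564) and in one fit of all 30 bulk libraries (1.0). C4a, a near-identical neighbour whose reads may be split with C4b, had 3.86 and 9.25 CPM with PLX5622 and 3.56 and 2.04 CPM with placebo, and both values are uncertain to that extent. C4a was named after its values were seen.

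The remaining complement genes beyond C1q did not pass. Of 13 tested, C4b was the 1 that rose, and the median was 0.27. C3ar1, a receptor of phagocytes, had 2 and 0 counts with PLX5622 against 9 and 14 with placebo. Serping1, the C1 inhibitor, had 4.07 and 6.91 CPM with PLX5622 and 1.45 and 3.37 CPM with placebo.

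The list of reactive astrocyte genes had 28 tested members with a median of 0.33, of which C4b rose and Cd14, which microglia also express, fell. Gfap, the intermediate filament of astrocytes, had 472 and 308 CPM with PLX5622 and 266 and 179 CPM with placebo (log2 difference 0.84 ± 0.42, edgeR adjusted p = 1.0). Serpina3n, a secreted protease inhibitor, had 14.4 and 27.3 CPM with PLX5622 and 11.2 and 7.99 CPM with placebo (log2 difference 1.17 ± 0.36, edgeR adjusted p = 0.696). Osmr, the oncostatin M receptor, had 5.11 and 5.21 CPM with PLX5622 and 1.84 and 3.46 CPM with placebo. None of these 3 genes reached the threshold, and of the 28 members tested 18 had positive and 10 had negative differences. Gfap was named after its values were seen. Homeostatic astrocyte genes had a median of -0.07 over 20 tested, with Agt, angiotensinogen, lowest in p at 6.16 and 11.6 CPM with PLX5622 against 26.3 and 16.1 CPM with placebo.

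**Figure D4:**
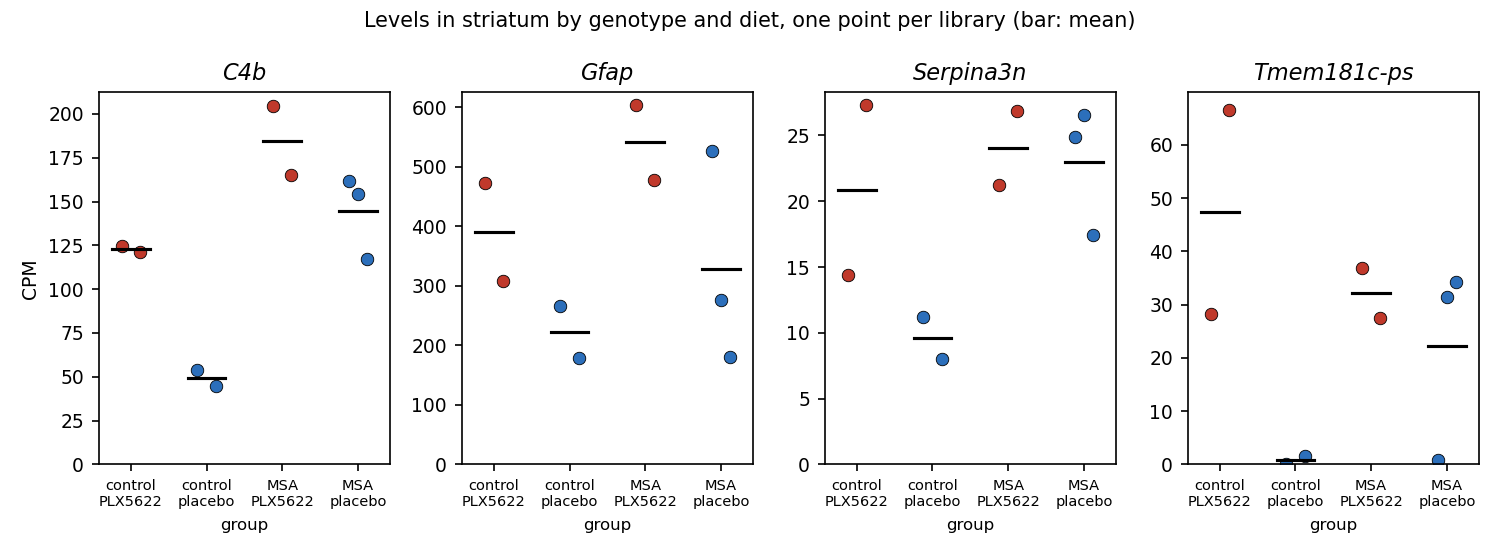
CPM of C4b, Gfap, Serpina3n and Tmem181c-ps in the 9 striatum libraries, one point per library and a bar at the group mean, with PLX5622 left of placebo within each genotype. The control PLX5622 points of C4b, at 125 and 121 CPM, lie above both control placebo points and below both MSA PLX5622 points, and Tmem181c-ps is near 0 in both control placebo libraries and in 1 placebo MSA library.

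Some genes near C4b, and a pair of transcripts at or near 0 in some libraries, had higher values with PLX5622 without being called. Among the 50 genes that were higher at an unadjusted p under 0.05, 10 lie on chromosome 17, which holds 5.00% of the genes tested. Tnxb, which neighbours C4b, had 3.03 and 5.64 CPM with PLX5622 and 1.84 and 0.621 CPM with placebo. Glo1, the methylglyoxal-clearing glyoxalase of the same chromosome, had 46.8 and 44.0 CPM with PLX5622 and 30.7 and 29.6 CPM with placebo. Tmem181c-ps, a pseudogene on chromosome 17, had 271 and 626 counts with PLX5622 against 0 and 18 with placebo. Eyelinc18, a non-coding transcript on chromosome 13, had 222 and 264 counts with PLX5622 against none with placebo. Neither was called (edgeR adjusted p = 1.0 and 0.145). Eyelinc18 nevertheless passed in the fit of the control libraries alone (edgeR adjusted p = 0.000788) and with DESeq2 (DESeq2 adjusted p = 4.83e-05). Both passed without the first placebo MSA library (edgeR adjusted p = 0.012 for Tmem181c-ps, 6.88e-05 for Eyelinc18).

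Across the whole series these transcripts did not follow the diet alone. Tmem181c-ps was under 2 CPM in the first and second placebo control libraries of striatum, cortex and corpus callosum and in the first placebo MSA library of each region. It was at 33.3 CPM in the third placebo control library of cortex and at 40.5 CPM in that of corpus callosum, and at 20.2 to 86.7 CPM in every PLX5622 library. In placebo MSA striatum C4b was 162 CPM in the library near 0 for Tmem181c-ps and 154 and 117 CPM in the other placebo libraries. It was 45.6 CPM in that library of placebo MSA cortex, with 33.2 and 39.4 CPM in the others. In placebo MSA corpus callosum it was 632 CPM in that library and 251 CPM in the other. In placebo control cortex C4b was 5.70 CPM in the library with Tmem181c-ps and 10.2 and 5.70 CPM in those at or near 0 for it. In placebo control corpus callosum C4b was 51.8 CPM in the library with Tmem181c-ps and 99.4 and 28.4 CPM in those near 0 for it. In control striatum both transcripts were at or near 0 in both placebo libraries and present in both PLX5622 libraries, so what they mark and the diet cannot be told apart there, and the labels do not give the origin of the animals. The part of these differences in the C4b result was not tested. Tmem181c-ps was named after its values were seen.

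Oligodendrocyte genes gave no call. The 24 mature markers had a median of -0.07, between -0.20 and 0.16. Mbp, a major protein of myelin, had 7560 and 5329 CPM with PLX5622 and 7533 and 6249 CPM with placebo (log2 difference -0.07 ± 0.33). For Mbp the groups overlapped. The 18 genes of precursors and new oligodendrocytes had a median of 0.02. Of 21 genes of cholesterol synthesis and efflux 18 had positive differences with a median of 0.17, and none passed. Among them Insig1, a brake on sterol synthesis, had 50.5 and 55.0 CPM with PLX5622 and 34.5 and 40.9 CPM with placebo.

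Neuronal genes of the striatum gave no call. The 20 genes common to projection neurons had a median of 0.18, those of D1 neurons 0.15 and those of D2 neurons 0.07, each over its tested members. Drd1, the D1 receptor, had 296 and 301 CPM with PLX5622 and 301 and 284 CPM with placebo (log2 difference 0.06 ± 0.25). Drd2, the D2 receptor, had 326 and 293 CPM with PLX5622 and 275 and 326 CPM with placebo (0.07 ± 0.26). Tac1, the substance P precursor of D1 neurons, had 193 and 144 CPM with PLX5622 and 167 and 128 CPM with placebo. Penk, the enkephalin precursor of D2 neurons, had 1528 and 1303 CPM with PLX5622 and 1173 and 1455 CPM with placebo. Drd1 was named after its values were seen.

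In some activity-dependent and interneuron genes 1 placebo library stood apart. Immediate early genes summed to 1160 and 1112 CPM with PLX5622 and to 1852 and 1130 CPM with placebo, and the median of the 17 was -0.58. Nr4a3 had 7.30 and 7.66 CPM with PLX5622 against 68.5 CPM in the first and 9.05 CPM in the second placebo library. Nr4a1 had 47.6 and 46.8 CPM with PLX5622 against 174 and 53.9 CPM with placebo. The 12 interneuron genes had a median of 0.02, with 7 positive and 5 negative. They summed to 421 and 390 CPM with PLX5622 and to 461 and 410 CPM with placebo. Among them Calb2, calretinin, had 0.730 and 2.02 CPM with PLX5622 against 27.1 and 1.78 CPM with placebo. Pvalb, parvalbumin, had 13.1 and 5.00 CPM with PLX5622 against 51.6 and 5.77 CPM with placebo. In each of these 4 the first placebo library alone was high, and none passed.

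Transcripts of choroid plexus and of cortex, which lie next to the striatum, varied between libraries. Choroid plexus genes summed to 52.2 and 386 CPM with PLX5622 and to 88.4 and 160 CPM with placebo, so that the second PLX5622 library held the most. Genes of cortical glutamatergic neurons, which could enter by dissection, summed to 84.1 and 192 CPM with PLX5622 and to 155 and 148 CPM with placebo. Apart from these neighbouring tissues, endothelial genes had a median of 0.33 over 16 tested. Among them Kdr, a VEGF receptor, had 8.45 and 5.10 CPM with PLX5622 and 3.16 and 1.42 CPM with placebo. None of these lists gave a call. Hspa8, a constitutive chaperone, was among the 10 higher genes of smallest p outside the threshold, with 212 and 164 CPM with PLX5622 and 108 and 108 CPM with placebo (edgeR adjusted p = 0.756).

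For 13 microglial genes the loss was deeper in control striatum than in MSA striatum. The test of the difference itself, the interaction of genotype and diet over the 9 striatum libraries, called these 13 genes (0.0874% of 14872). None was called in the other direction, in which 355 genes (2.39%) had an unadjusted p under 0.05 by edgeR and 1 was called by DESeq2. Tmem119 kept 0.862% of its placebo level in control striatum and 18.5% in MSA striatum, where it had 6.37 and 6.51 CPM with PLX5622 against 37.9, 34.4 and 32.1 CPM with placebo. Its log2 difference between the diet effects, MSA minus control, was 4.33 ± 0.45 (edgeR adjusted p = 0.00428). Csf1r kept 0.363% in control striatum and 19.7% in MSA striatum, with 13.1 and 38.9 CPM with PLX5622 and 121, 140 and 136 CPM with placebo in MSA mice. Ctss kept 0.316% and 32.2%, C1qb 0.340% and 25.01%, P2ry12 0.434% and 15.2%, and Mpeg1 0.911% and 38.1%, each in control and in MSA striatum. Over the 49 genes chosen by their fall in control striatum, the median share left was 1.15% there and 25.01% in MSA striatum, a comparison that the choice favours. The interaction rested in part on the third PLX5622 MSA library, without which 2 of the 13 calls remained, those of Tmem119 and Laptm5. The count was 8 without the first placebo control library, 7 without the second PLX5622 control library, 8 without the second and 21 without the first placebo MSA library. The other PLX5622 MSA library had the lowest share of reads assigned to genes, 65.5%, against 74.3 to 76.9% in the other striatum libraries.

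**Figure D5:**
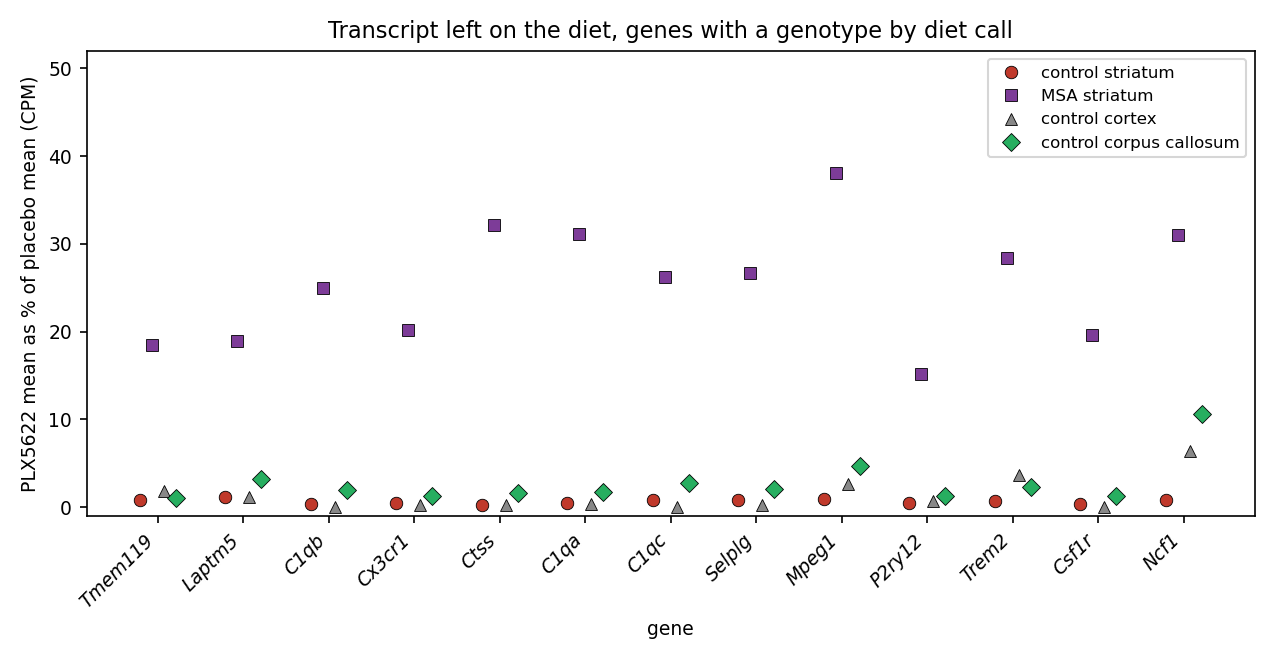
Share of the placebo level left with PLX5622, as the ratio of mean CPM in percent, for the 13 genes with a genotype by diet call. Control striatum lies at or below 1.20% for each gene and MSA striatum between 15.2 and 38.1%, while control cortex and control corpus callosum lie at or below 10.7%.

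Against the other regions of control mice no gene was called, which does not show that the diet effects were alike. The test of striatum against cortex called 0 of 16080 genes (0.0%), with 171 (1.06%) at an unadjusted p under 0.05 by edgeR and 2 called by DESeq2. The test of striatum against corpus callosum also called 0 of 16080 (0.0%), with 183 (1.14%) at an unadjusted p under 0.05 by edgeR and 2 called by DESeq2. The median share left over the 49 genes was 1.15% in control striatum, 1.49% in control cortex and 2.98% in control corpus callosum. Csf1r kept 0.363% in striatum, no count in cortex and 1.33% in corpus callosum. Ncf1 kept 0.783% in striatum, 6.37% in cortex and 10.7% in corpus callosum, with log2 differences between the diet effects of -2.78 against cortex and -3.51 against corpus callosum that did not pass. For C4b the diet effect in striatum minus that in cortex was -0.14 on the log2 scale, which did not pass either.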

How the data were processed

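Poly(A) RNA-seq of 36 mouse libraries was deposited. The submitters' processing notes list the tools STAR, HOMER and DESeq2 and the build mm10. Versions, settings and the strand mode of counting are not given there, and counts of genes that overlap or run antisense to each other are uncertain for that reason. The authors deposited raw read counts per gene for 24940 genes, with 1 RefSeq transcript and its coordinates each, and a second table of the same genes in TPM, which was used only to set levels of different genes side by side. From the deposited counts, CPM were computed as counts scaled to 1000000 assigned per library. In the 4 control striatum libraries 75.2 to 76.9% of the header total was assigned.

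All 9 striatum libraries were fitted together by group, since 2 libraries per group share 1 estimate of spread, with filterByExpr (minimum count 10), TMM and edgeR 4.0.16 (robust quasi-likelihood test, 2-sided, R 4.3.3), Benjamini-Hochberg adjusted over all genes. Differences between regions were fitted on all 30 bulk libraries. Standard errors are the log2 difference over the root of F. Folds against a group without counts are bounds from 3 counts over the group, and ratios against 1 to 3 counts carry exact 95% intervals, and both cover counting error only. A chi-square test of the counts gave 21.1 per degree of freedom between the PLX5622 libraries and 13.3 between the placebo libraries, so none is a copy. The fits were tested on simulated data, in which the share of false calls exceeded the adjusted p threshold in each of the 4 tests.

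The comparison, the 37 gene lists (601 genes, of which 1 is absent from the table) and the tests were chosen with earlier results of these data known. Lists are described by counts and medians without a set test. Named are Csf1r, Aif1, Tmem119, P2ry12, Cx3cr1 and Mbp, every called gene of each test, at most 4 genes of each list with the smallest p, the 10 higher and 10 lower genes of smallest p outside the threshold, and the 10 genes at each end of the microglial class by share left, apart from those said to be named after their values were seen. Not all that the rule selects are named, and some of them are not reported here. Alternatives were RLE size factors, a block for the replicate number, no filter on low counts, DESeq2 1.42.0, the control libraries alone, all bulk libraries together, and each library left out.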

Additional observations from a re-analysis of the deposited data

Results flagged for a closer look

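The effect of the diet differed between genotypes in 13 microglial genes, by the interaction test over the 9 striatum libraries (edgeR, adjusted over 14872 genes). Values are log2 differences of the diet effect in MSA striatum minus that in control striatum, so a positive value means that less was lost in MSA striatum. They were 6.53 for Ctss, 6.06 for C1qb, 6.02 for C1qa, 5.70 for Csf1r, 5.37 for Cx3cr1, 5.30 for Mpeg1, 5.14 for Ncf1, 5.03 for Trem2, 5.01 for P2ry12, 4.92 for C1qc, 4.89 for Selplg, 4.33 for Tmem119 and 3.94 for Laptm5. In all 13 the control PLX5622 libraries held between 0 and 7 counts, so the size of these values depends on very few counts. The fits assume that the 2 control PLX5622 libraries, whose treatment tag says no treatment, are what their titles say.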

How the results depend on the processing

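Of 50 called genes 24 stayed called in all alternatives run and 33 in all that kept every library of the groups compared, and none of the 50 reversed. The count was 84 without the filter on low counts and 99 with DESeq2, and between 29 and 57 with 1 library left out. The interaction count of 13 was 24 without the filter and 22 with DESeq2, and between 2 and 21 with 1 library left out. With the replicate number as a block the diet count was 57 (48 shared with the 50) and the interaction count 44 (12 shared with the 13), but the labels do not say that a number pairs libraries. Deviations of same-numbered striatum libraries from their group means correlated at -0.117 to 0.243 over 10 pairs, of which 5 were over 0.1. These included both pairs between the control diet groups and neither of those between the MSA diet groups. In a group of 2 libraries the deviations mirror each other, so both control pairs hold the same value, 0.243, and the 10 pairs are not independent. The check therefore cannot decide whether the number marks a pairing, and the number was not used as one. For striatum against cortex and against corpus callosum DESeq2 called 2 genes each, and leaving out 1 library gave 0 to 0 calls for cortex and 0 to 1 for corpus callosum.

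Of the named genes, 7 changed sign and F13a1 reached 0, and none of these 8 was called. Over the libraries left out 1 at a time, the log2 difference ran between -0.31 and 0.14 for Mbp, -0.26 and 0.29 for Csf1, -6.48 and 0 for F13a1, -0.55 and 0.69 for Cd163, -0.059 and 0.22 for Drd2, -0.024 and 0.32 for Penk, -2.47 and 0.66 for Pvalb, and -1.60 and 0.46 for Bdnf. Mbp also changed sign, to 0.058, without the first placebo library, and Csf1 to 0.0073 with the replicate block. The causes were not tested. With 2 libraries per group a p that misses the threshold does not show that a gene held its level, and 20 of 66 uncalled named genes were called in some alternative.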
